A study of Mus musculus with 31 samples.

Results

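The 10 genes described here encode the interleukin-1 (IL-1) receptor antagonist *Il1rn*, the ST2 receptor *Il1rl1*, the cytokines *Il6* and *Lif*, the chemokines *Cxcl1*, *Cxcl5*, *Cxcl12*, *Ccl2* and *Ccl7*, and the matrix metalloproteinase *Mmp3*. They were read in *Crebbp*+/- and wild-type (WT) mouse embryonic fibroblasts (MEFs) and in fetal liver hematopoietic stem cells (FL HSCs). *Il1rn* was selected on its higher level in *Crebbp*+/- MEFs, and its values in that comparison are given as a description with no test. Of the 10 genes, 9 were among the 18194 with probe sets of their own in the probe table used here, and they held 16 of the 45037 probe sets that are not controls. *Il1rl1* had no probe set paired with it alone in that table, and no value is given for it.

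IL-1 binds a receptor on fibroblasts and other cells and switches on NF-kappaB, which drives transcription of chemokines, *Il6* and metalloproteinases. The product of *Il1rn* occupies the same receptor without starting a signal and so limits the response. Fibroblasts are a known source of most of these proteins: CXCL12 retains stem cells in their niche through CXCR4, CXCL1 and CXCL5 attract neutrophils through CXCR2, and CCL2 and CCL7 attract monocytes through CCR2. *Crebbp* encodes CBP, an acetyltransferase and coactivator of many transcription factors, NF-kappaB among them.

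RNA was hybridized to Mouse 430 2.0 arrays. The 4 WT and 4 *Crebbp*+/- MEF samples were grown from the bodies of single C57BL/6 embryos at 14.5 days post coitus, 1 embryo of each genotype from each of 4 litters. FL HSCs were sorted as Sca-1+ Lin- AA4.1+ c-Kit++ cells from pools of 15 fetal livers of the same age, with 2 WT and 2 *Crebbp*+/- samples, 2 WT and 2 *Ep300*+/- samples (both C57BL/6, each sample read on 2 arrays), and 3 WT and 4 *Cdkn1a*-/- samples (labelled B6/129Sv, bought as separate WT and null stocks). The mutant alleles were inherited through the germ line and so were carried by all cells of an embryo, and the MEF cultures can hold more than 1 kind of body cell. In bulk samples such as these, fewer cells of a type and less RNA per cell cannot be told apart.

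All 10 fibroblast markers reached log2(100), the minimum intensity of the study's methods (6.64 on the log2 scale), in every MEF sample, while markers of mast cells, endothelium, fetal hepatocytes and erythroid cells reached it in none. Of 6 epithelial markers 1, *Epcam*, reached it in every MEF sample (8.87 to 9.34). The stem and progenitor marker *Gata2* reached it in some (5.46 to 7.15). In at least 1 sample, 4 of 10 macrophage markers reached it in WT and 3 in *Crebbp*+/- MEFs. The fibroblast markers were all lower on average in *Crebbp*+/- MEFs (median log2 change -0.18 beside 0.02 over all probe sets tested, 42.1% of which were lower), and limma called 0 of the 10. *Dcn*, the matrix proteoglycan decorin, differed by -1.02 (adjusted p = 0.505) and *Postn*, the matrix protein periostin, by -0.49 (adjusted p = 0.609), each lower in 4 of 4 litters. Without litter 1, 8 of the 10 were lower (median -0.09). Their summed linear level was 170310 to 192150 in WT and 154710 to 177930 in *Crebbp*+/- MEFs. The part of this in the *Il1rn* and chemokine values was not tested. *Crebbp* itself was lower in all 4 *Crebbp*+/- MEF samples (9.38 to 9.50) than in the 4 WT samples (10.15 to 10.33) at its brightest probe set, which did not separate the genotypes in FL HSCs (11.66 to 11.95 against 11.41 to 12.07). All 4 of its probe sets separated the genotypes in MEFs. In FL HSCs 2 dimmer ones did, at 6.311 to 6.7215 in *Crebbp*+/- against 6.878 to 7.004 in WT and at 3.92 to 4.15 against 4.38 to 4.39. *Ep300* read 9.46 to 9.47 in *Ep300*+/- and 9.53 to 9.60 in WT FL HSCs, and *Cdkn1a* 5.30 to 8.07 in the null and 7.66 to 8.86 in WT FL HSCs. A pair of samples stood apart. Among probe sets with a range of at least 1 log2 unit over the WT MEFs, WT litter 1 was separated from the other WT samples by a wide gap at 198 of 1614 (12.3%), and each other WT litter at 1 to 9. *Cdkn1a* WT sample 3 is described with the FL HSC values.

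In MEFs, 11 of the 16 probe sets reached the minimum in at least 1 sample so entered the fit, 3 of them of *Il1rn*. Of the other 8, limma called 0, against 0.0% of all 15502 probe sets tested (a call is an adjusted p under 0.05 and a fold over 1.5). *Crebbp* itself was not called at any of its probe sets. Its brightest one changed by -0.79 (log2, standard error 0.07, adjusted p = 0.417 from limma). The lack of a call in MEFs therefore does not show that a gene was unchanged. Without adjustment 149 of the 15502 (0.961%) passed in limma, and 0 of those 8. The methods use a paired test and name no adjustment. That test passed 72 of the 15502 without adjustment and 0 after it. *Il6*, both probe sets of *Lif* and 1 probe set each of *Cxcl1* and *Cxcl12* stayed below the minimum in all 8 MEF samples.

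*Il1rn* has 3 transcription starts in RefSeq, on chromosome 2. Windows of 300 bases around 2 of them are shown because this is the gene with the widest mean difference between genotypes here, and those of *Cxcl1* and *Cxcl12*, chemokines also read above the minimum, are shown beside them. Each runs 5′ to 3′ on the gene's strand, from 250 bases before the start to 50 after it (build GRCm38.p6, all on the plus strand). They lie at chr2:24336610-24336909 and chr2:24345121-24345420 for *Il1rn*, chr5:90890995-90891294 for *Cxcl1* and chr6:117168285-117168584 for *Cxcl12*. Capitals mark matches on either strand to an NF-kappaB-like motif (GGGNNNTTCC), an AP-1 motif (TGANTCA), a CRE (TGACGTCA) or a C/EBP-like motif (TTGCNNAA).
Il1rn, first start: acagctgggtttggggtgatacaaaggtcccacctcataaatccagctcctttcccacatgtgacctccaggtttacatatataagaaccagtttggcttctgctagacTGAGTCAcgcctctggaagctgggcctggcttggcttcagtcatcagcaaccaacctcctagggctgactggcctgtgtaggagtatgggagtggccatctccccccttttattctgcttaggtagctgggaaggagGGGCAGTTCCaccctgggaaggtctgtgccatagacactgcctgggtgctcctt
Il1rn, last start: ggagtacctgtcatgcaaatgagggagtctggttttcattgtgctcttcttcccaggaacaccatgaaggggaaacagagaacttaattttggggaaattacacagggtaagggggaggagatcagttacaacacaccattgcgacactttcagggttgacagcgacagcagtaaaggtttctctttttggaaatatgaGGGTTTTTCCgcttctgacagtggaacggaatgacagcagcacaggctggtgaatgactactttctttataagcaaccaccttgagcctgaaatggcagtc
Cxcl1: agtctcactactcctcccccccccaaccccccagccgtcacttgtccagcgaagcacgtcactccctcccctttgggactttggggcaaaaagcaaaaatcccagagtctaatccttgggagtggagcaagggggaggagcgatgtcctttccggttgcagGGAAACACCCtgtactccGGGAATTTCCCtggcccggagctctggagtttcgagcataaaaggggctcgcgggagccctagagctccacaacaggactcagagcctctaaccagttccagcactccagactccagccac
Cxcl12: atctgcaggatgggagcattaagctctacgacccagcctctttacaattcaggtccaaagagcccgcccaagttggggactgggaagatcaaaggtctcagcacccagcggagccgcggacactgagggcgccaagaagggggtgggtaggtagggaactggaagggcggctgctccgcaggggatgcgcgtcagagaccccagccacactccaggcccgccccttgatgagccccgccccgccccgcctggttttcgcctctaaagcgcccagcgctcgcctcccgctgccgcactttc

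The first *Il1rn* window held 1 AP-1 match (TGAGTCA) and 1 NF-kappaB-like match (GGGCAGTTCC), and the last held 1 NF-kappaB-like match (GGGTTTTTCC), which the overlapping window of the middle start shares. *Cxcl1* held 3 NF-kappaB-like matches, of which GGGAATTTCC and GGAATTTCCC overlap on opposite strands. The *Cxcl12* window held no match to any of the 4 motifs. Of the 7 genes with a window in the table, *Il6* held 1 match each to the NF-kappaB-like, AP-1 and C/EBP-like motifs. *Mmp3* held 1 AP-1 and 1 C/EBP-like match, *Lif* 1 AP-1 match and *Il1rl1* 1 C/EBP-like match. Of all 32851 windows of this length, 5.56% held the NF-kappaB-like motif, 7.81% the AP-1 motif, 1.79% the CRE and 10.8% the C/EBP-like motif. These are matches of letters, and no binding was measured.

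*Il1rn*, the IL-1 receptor antagonist, was higher in the *Crebbp*+/- embryo of all 4 litters at all 3 of its probe sets. At the brightest one (1451798_at) the WT levels of litters 1 to 4 were 10.61, 9.20, 8.90 and 9.51 on the log2 scale, and the *Crebbp*+/- levels were 10.89, 10.88, 10.43 and 11.09. The *Crebbp*+/- samples lay close together, while WT litter 1 lay above the other WT samples and inside the range of the *Crebbp*+/- group. The means were 9.55 ± 0.74 (SD, n = 4) and 10.82 ± 0.28 (SD, n = 4), a log2 difference of 1.27, or 2.41-fold.

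At the second *Il1rn* probe set (1423017_a_at) the WT levels were 9.54, 8.69, 7.98 and 8.85 and the *Crebbp*+/- levels were 10.27, 10.29, 9.74 and 10.40. Here the genotypes did not overlap, as was so for 2.19% of all probe sets tested (*Crebbp*+/- higher), and the mean log2 difference was 1.41 (2.66-fold). The third (1425663_at) read 8.06, 6.32, 6.19 and 6.57 in WT and 8.24, 7.93, 7.49 and 7.93 in *Crebbp*+/- MEFs, a log2 difference of 1.11. Only the WT sample of litter 1 reached the minimum there among the WT samples, so the size of this difference depends on the background. The first and the last of these probe sets were designed from the same transcript sequence and are not independent readings. A probe set was higher in 4 of 4 litters for 10.2% of all tested, and nothing is read from either share for *Il1rn*, because the gene was chosen from this comparison.

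The difference was narrower in litter 1 than in the other litters at each *Il1rn* probe set. For the brightest it was 0.28 in litter 1 against 1.68, 1.53 and 1.59 in litters 2 to 4, and for the third 0.17 against 1.61, 1.30 and 1.37. Without litter 1 the mean differences of the 3 probe sets, from the brightest to the dimmest, were 1.60, 1.64 and 1.43.

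**Figure D1:**
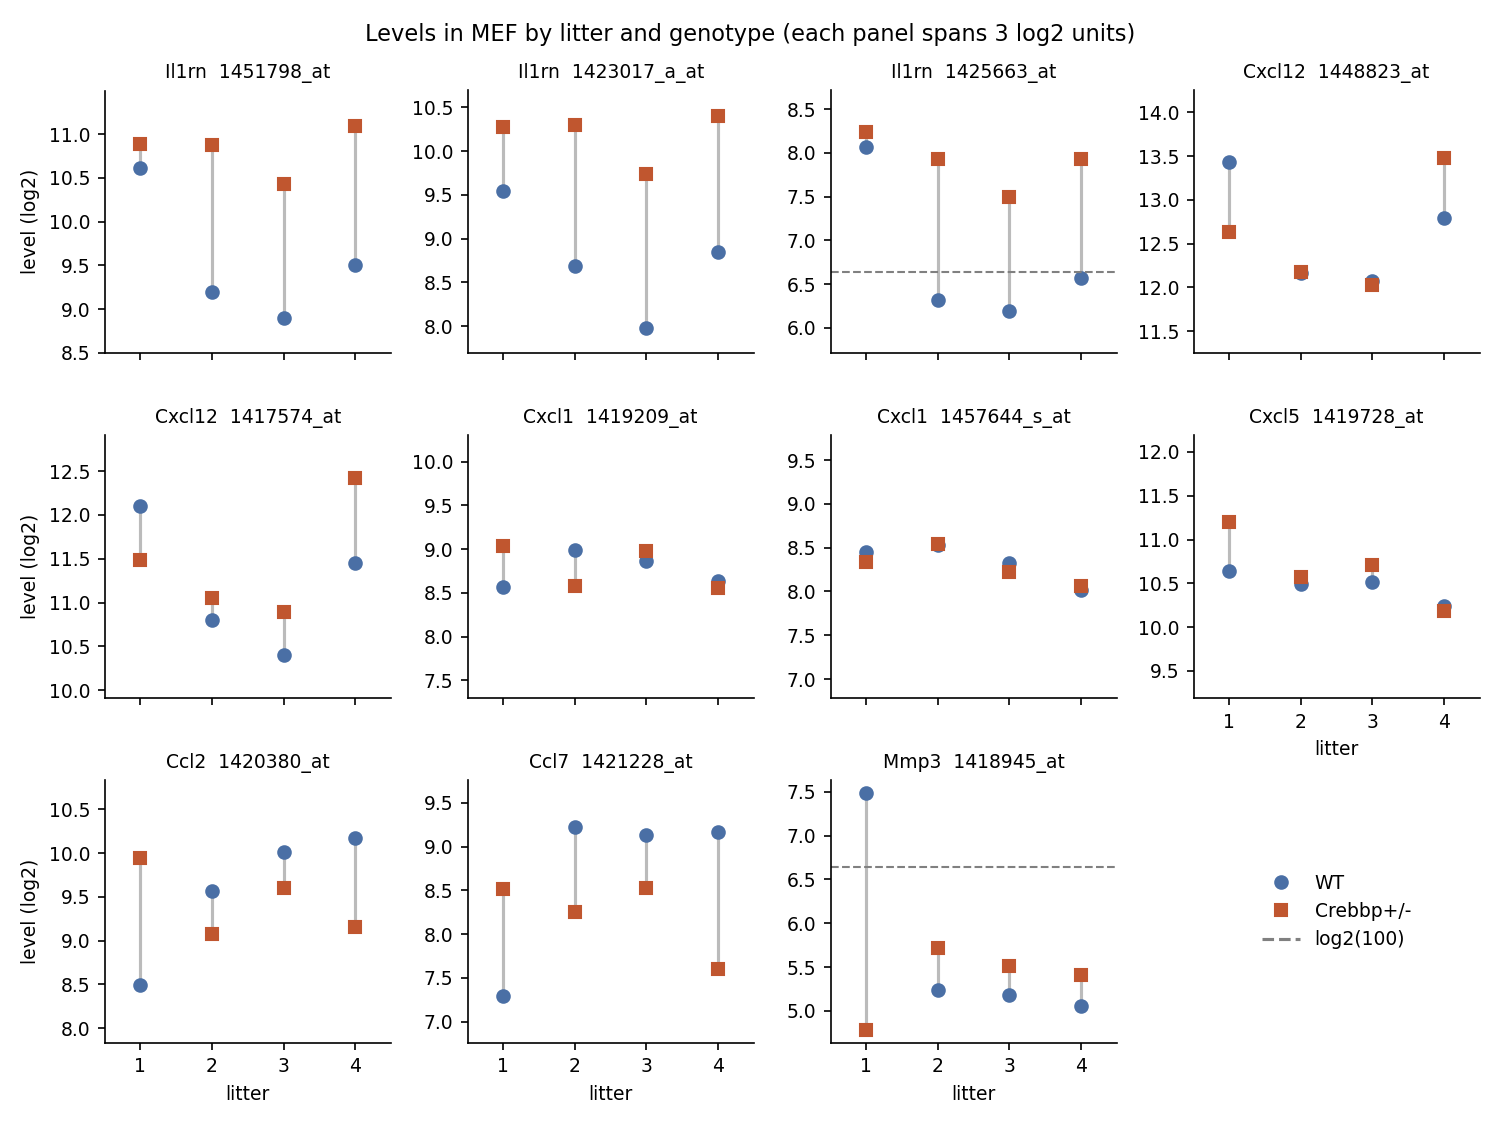
Level on the log2 scale of each tested probe set in MEFs (vertical axis) by litter (horizontal axis), with WT as circles, *Crebbp*+/- as squares, a grey line joining the 2 embryos of a litter and a dashed line at log2(100). *Il1rn* is higher in *Crebbp*+/- in every litter, whereas *Ccl2*, *Ccl7*, *Cxcl12* and *Mmp3* run the opposite way in litter 1 from litter 4.

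The tested probe sets of the other genes differed less, and in both directions. Leaving aside *Mmp3*, which entered the fit through 1 sample, 3 of 7 were higher and 4 lower in *Crebbp*+/- MEFs, from -0.48 to 0.27 on the log2 scale (median -0.04), beside a median of 0.02 over all 15502 tested. Their adjusted p-values from limma ran from 0.760 to 0.982.

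*Cxcl12*, the CXCR4 ligand that holds stem cells in place, varied between litters: the litter means of its brightest probe set spanned 1.08 log2 units. At that probe set (1448823_at) the WT levels were 13.43, 12.16, 12.07 and 12.79 and the *Crebbp*+/- levels 12.63, 12.18, 12.02 and 13.47. Litters 1 and 4 were the high litters and litters 2 and 3 the low ones, in both genotypes. The log2 change was -0.04 (standard error 0.23, adjusted p = 0.982 from limma). The next probe set (1417574_at) read 12.10, 10.81, 10.40 and 11.45 in WT and 11.48, 11.06, 10.90 and 12.42 in *Crebbp*+/- MEFs, a change of 0.27 (log2, standard error 0.25, adjusted p = 0.823). In litter 1 it was lower by 0.61 in the *Crebbp*+/- embryo and in litters 2 to 4 higher, by 0.25, 0.50 and 0.97, so the change without litter 1 was 0.57. The remaining *Cxcl12* probe set read 3.52 to 3.68.

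*Cxcl1* and *Cxcl5*, the neutrophil attractants, overlapped between the genotypes. *Cxcl1* (1419209_at) read 8.57, 8.99, 8.86 and 8.64 in WT and 9.04, 8.58, 8.98 and 8.56 in *Crebbp*+/- MEFs, so the groups overlapped over nearly their whole range. Its log2 change was 0.02 (standard error 0.15, adjusted p = 0.982 from limma), higher in 2 of 4 litters. Its second probe set (1457644_s_at) differed by -0.04 (standard error 0.07, adjusted p = 0.890), and the remaining one lay at 1.84 to 2.00. *Cxcl5* read 10.64, 10.49, 10.52 and 10.24 in WT and 11.20, 10.57, 10.71 and 10.18 in *Crebbp*+/- MEFs. It was higher in 3 of 4 litters, most so in litter 1, and differed by 0.20 (log2, standard error 0.12, adjusted p = 0.760), or by 0.07 without litter 1.

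*Ccl2* and *Ccl7*, monocyte attractants that are neighbours on chromosome 11, followed each other. *Ccl2* read 8.49, 9.57, 10.02 and 10.18 in WT and 9.95, 9.08, 9.60 and 9.16 in *Crebbp*+/- MEFs. *Ccl7* read 7.30, 9.22, 9.13 and 9.17 in WT and 8.52, 8.26, 8.53 and 7.60 in *Crebbp*+/- MEFs. WT litter 1 was the lowest of the 8 samples for both genes, and in litters 2 to 4 the WT embryo was the higher one for both. The log2 changes were -0.11 for *Ccl2* (standard error 0.41, adjusted p = 0.963 from limma) and -0.48 for *Ccl7* (standard error 0.45, adjusted p = 0.826), each lower in 3 of 4 litters. Without litter 1 they were -0.64 (adjusted p = 0.327) and -1.05 (adjusted p = 0.297), which limma did not call either.

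*Mmp3*, a protease of the extracellular matrix that IL-1 induces in fibroblasts, passed the minimum in a single sample. The WT levels were 7.48, 5.23, 5.18 and 5.06 and the *Crebbp*+/- levels 4.78, 5.72, 5.52 and 5.40. The one sample above log2(100) was again WT litter 1, while its *Crebbp*+/- littermate was the lowest of the 8. The mean difference of -0.38 came from that litter: without it the difference was 0.39, with 0.48, 0.34 and 0.35 in litters 2 to 4, between levels below the minimum. No test is given, since the gene entered the fit through this 1 sample.

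*Lif* and *Il6*, cytokines that signal through the shared receptor subunit gp130, stayed below the minimum in MEFs. *Lif* (1421207_at) read 4.54 to 5.29 in WT and 5.30 to 6.07 in *Crebbp*+/- MEFs, below the minimum in every sample. It was higher in 4 of 4 litters with no overlap, by 1.27, 0.27, 0.99 and 0.005 in litters 1 to 4. Both patterns rest on the 0.005 of litter 4. Of all probe sets tested, 10.2% were higher in 4 of 4 litters and 2.19% did not overlap (*Crebbp*+/- higher). *Lif* was not tested, and a difference at this level depends on the background. Its other probe set read 2.21 to 2.31. *Il6* read 2.20 to 2.31 with no separation of the genotypes.

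**Figure D2:**
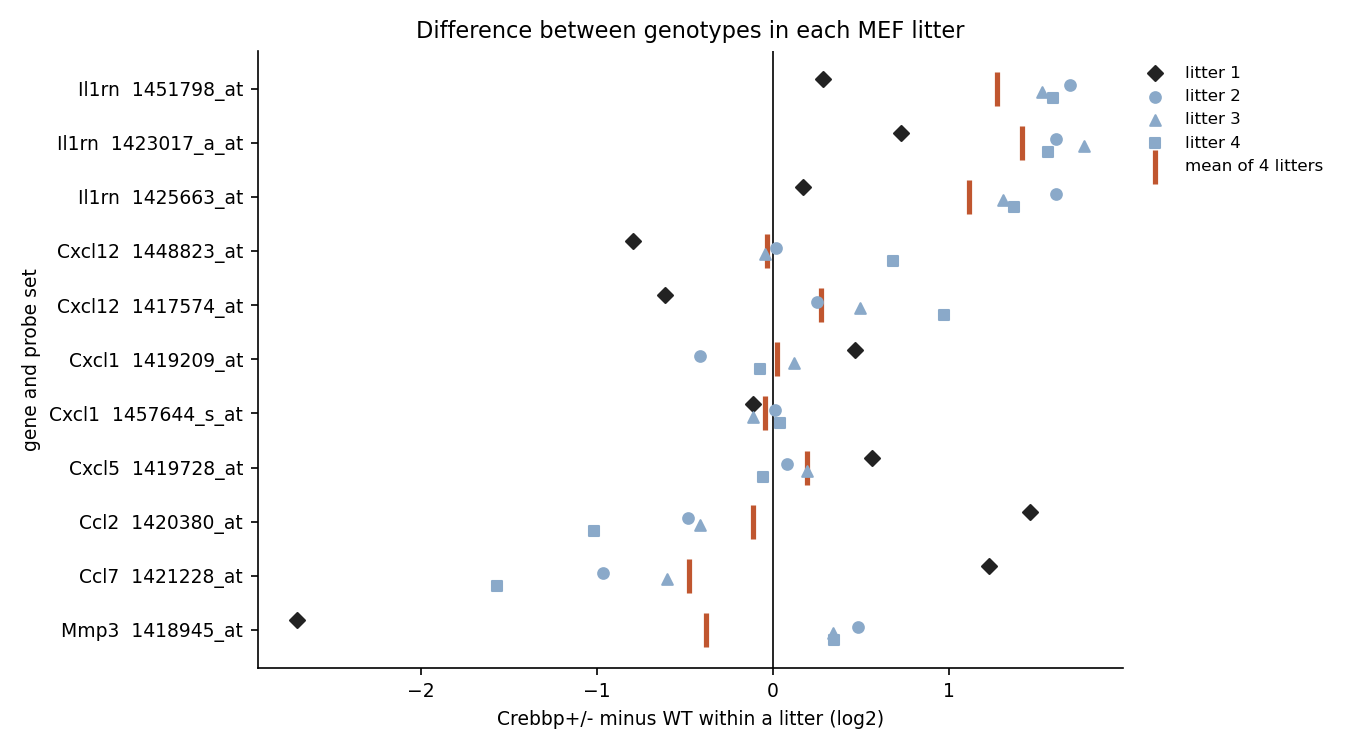
*Crebbp*+/- minus WT level within each litter on the log2 scale (horizontal axis) for the 11 tested probe sets (vertical axis), with litter 1 as black diamonds, litters 2 to 4 as blue symbols and the mean as a red bar. Litter 1 holds the highest or the lowest difference at all 11 probe sets, and for *Ccl2*, *Ccl7*, *Mmp3* and the 1417574_at probe set of *Cxcl12* it lies on the other side of 0 from litters 2 to 4.

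Litter 1 gave the highest or the lowest of the 4 litter differences at 11 of the 11 tested probe sets, and at 66.9% of all 15502. The 11 include 3 of *Il1rn*, which was chosen from this comparison, and *Mmp3*, which entered through WT litter 1. They also hold more than 1 probe set of *Cxcl1* and of *Cxcl12*, so nothing is read from the count. Litters 2, 3 and 4 did so at 44.5%, 37.4% and 51.3% of all tested. Macrophage markers were low in the same WT sample: the summed linear level of the list was 346 in WT litter 1, the lowest of the 8 samples, and 395 to 782 in the other WT samples, against 425 to 571 in *Crebbp*+/- MEFs. Of the 10 macrophage markers, 4 reached the minimum in WT and 3 in *Crebbp*+/- MEFs. WT litter 2 had the next lowest macrophage sum (395) and the highest *Ccl7* level of the 8 samples (9.22). The stem and progenitor list was highest in WT litter 1, at 247 against 141 to 207 in the other samples. The part of macrophages in the *Ccl2* and *Ccl7* levels was not tested.

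The wider pathways were read from 8 lists of 111 genes. In MEFs 43 of these genes were tested, 20 were higher and 23 lower with a median log2 change of -0.01, and limma called 0 (1 without adjustment, *Socs3*, beside the 0.961% of all probe sets). All 7 tested NF-kappaB factors and feedback inhibitors were higher in *Crebbp*+/- MEFs, by 0.02 to 0.30 (median 0.06), as were 57.9% of all probe sets tested. Without litter 1, 4 of the 7 were higher and *Nfkb2*, *Nfkbib* and *Rela* were lower by 0.02 or less. The widest were *Bcl3*, a nuclear cofactor of NF-kappaB, at 0.30 (standard error 0.10, adjusted p = 0.701) and *Nfkbia*, the inhibitor IkappaB-alpha, at 0.22 (standard error 0.09, adjusted p = 0.745). *Nfkbia* read 10.75, 10.26, 10.37 and 10.45 in WT and 10.81, 10.72, 10.53 and 10.64 in *Crebbp*+/- MEFs, with WT litter 1 again within the *Crebbp*+/- range. Of 7 tested genes of IL-1 and toll-like receptor signalling, 1 was higher and 6 lower (median -0.03), or 3 and 4 without litter 1, with *Ikbkg*, the regulatory subunit of the IkappaB kinase, at -0.14 and *Tab2*, an adaptor of the kinase TAK1, at -0.08.

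*Socs3*, a feedback inhibitor of gp130 signalling, read 10.70, 10.22, 10.40 and 10.16 in WT and 10.94, 11.13, 10.89 and 10.95 in *Crebbp*+/- MEFs. It was higher in 4 of 4 litters, as were 10.2% of all probe sets tested, and its groups did not overlap (2.19% of all, *Crebbp*+/- higher). Its log2 change was 0.61 (standard error 0.13, adjusted p = 0.553 from limma). *Stat3*, the transcription factor it restrains, differed by -0.23 (adjusted p = 0.758), and 4 of 8 tested genes of that list were higher. The chemokines *Cxcl15* and *Cxcl14* differed by 0.62 (adjusted p = 0.760) and 0.61 (adjusted p = 0.787). These sizes rest on single litters: *Cxcl15* was 0.36 without litter 2 and 0.94 without litter 1, and *Cxcl14* 0.16 without litter 1 and 1.09 without litter 4. Among 10 tested metalloproteinases and inhibitors 3 were higher and 7 lower (median -0.20). *Mmp13*, a collagenase, read 11.74 in WT litter 1 and 8.92 to 10.14 in the other WT samples, against 10.18 to 11.13 in *Crebbp*+/- MEFs, so its log2 change of 0.65 (adjusted p = 0.789) became 1.27 without litter 1. *Mmp11* differed by -0.30 (adjusted p = 0.630), and *Il18*, an IL-1 family cytokine, by 0.28 (adjusted p = 0.784). Of the other lists, 4 chemokines (2 higher, 2 lower), 4 IL-6 family ligands and receptors (1 higher, 3 lower), 2 IL-1 family genes and 1 chemokine receptor were tested.

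Of the genes tested in MEFs, those whose pattern over the 8 samples was most like *Il1rn* (1451798_at) were *Foxc1*, a forkhead transcription factor (Pearson r 0.97), *Pdlim4*, an actin-associated adaptor (0.97), *Smoc1*, a secreted matrix protein (0.94), the sulfatase *Arsi* (0.94), the small heat shock protein *Hspb6* (0.94) and the lactate dehydrogenase subunit *Ldhb* (0.94). The most opposite were *Blvrb*, a biliverdin reductase (-0.99), *Tfpi*, an inhibitor of coagulation (-0.97), and *Arhgap10*, a GTPase-activating protein (-0.96). They are the extremes of 1911 genes, of which 2.98% had r above 0.8, and the 8 points share litters and the contrast that *Il1rn* was chosen from. *Foxc1* read 11.01, 10.19, 9.89 and 10.28 in WT and 11.24, 11.00, 10.63 and 11.12 in *Crebbp*+/- MEFs. Like *Il1rn*, it was high in WT litter 1 and in all *Crebbp*+/- samples. *Blvrb* was the mirror image, with differences of -0.02 in litter 1 and -0.77 on average in litters 2 to 4. Over the same samples r with *Il1rn* was -0.80 for *Ccl7*, -0.55 for *Ccl2*, 0.48 and 0.68 for the 2 *Cxcl12* probe sets and between -0.33 and 0.28 for *Cxcl1*, *Cxcl5* and *Mmp3*.

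**Figure D3:**
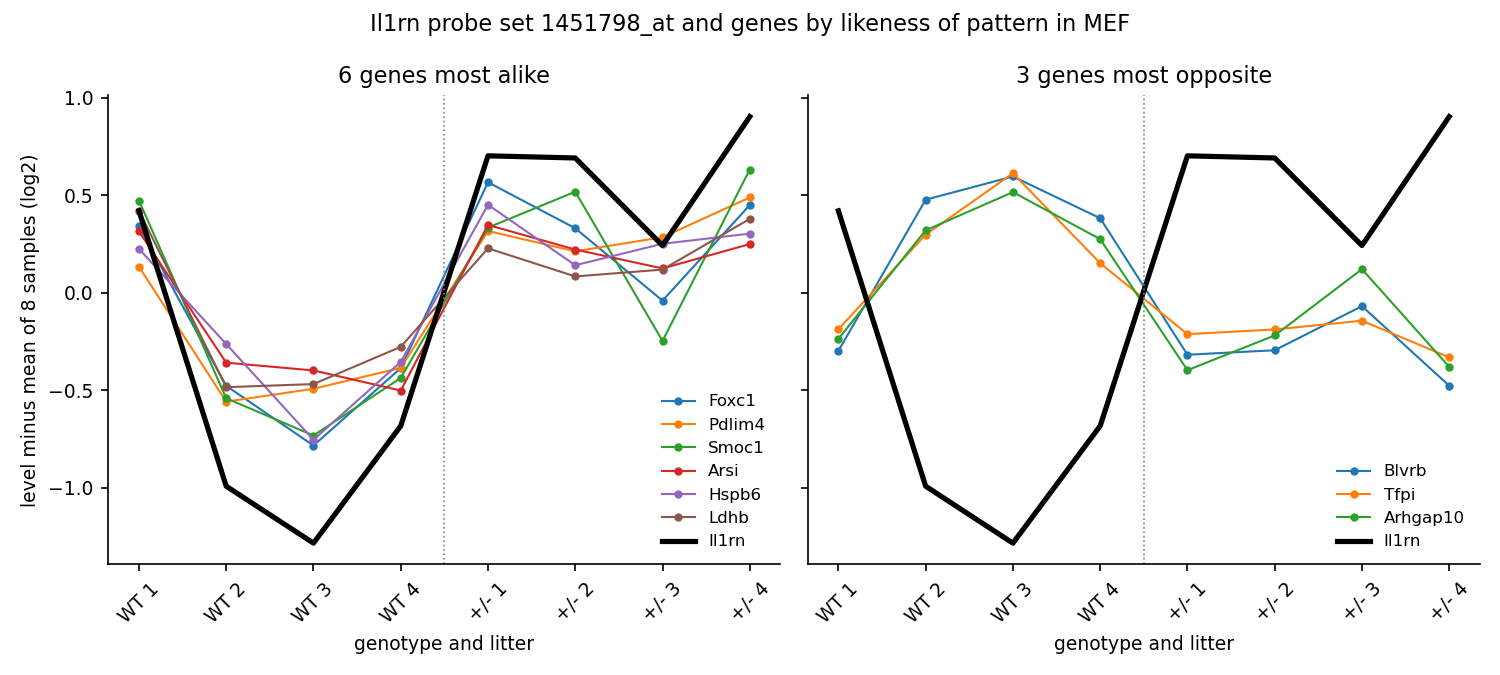
Level minus the mean of the 8 MEF samples on the log2 scale (vertical axis) by genotype and litter (horizontal axis) for *Il1rn* probe set 1451798_at (thick black line) and the 6 genes most alike (left) and 3 most opposite (right). Lines join points only to guide the eye: in the left panel WT litter 1 lies with the *Crebbp*+/- samples and WT litters 2 to 4 lie below them.

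In FL HSCs, 0 of the 16 probe sets reached the minimum in any sample of the 3 experiments, so limma tested none of them and had no member to compare between the *Crebbp* and *Ep300* effects. It called 0.383% of all probe sets tested for *Crebbp*+/-, 0.0% for *Ep300*+/- (104 probe sets passed without adjustment) and 0.405% for *Cdkn1a*-/- FL HSCs. When the limit on level was left out, all 16 entered the test and 0 passed in each experiment, with or without adjustment. The *Crebbp* arrays read 2.21 to 3.24, with 127 of 128 values below 3, and the *Ep300* arrays 2.11 to 2.87, with 128 of 128 below 3. In the *Cdkn1a* experiment 110 of 112 values were below 3. Levels near 2 are those of probe sets with no signal over background, so a change of these genes was not detectable in FL HSCs.

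**Figure D4:**
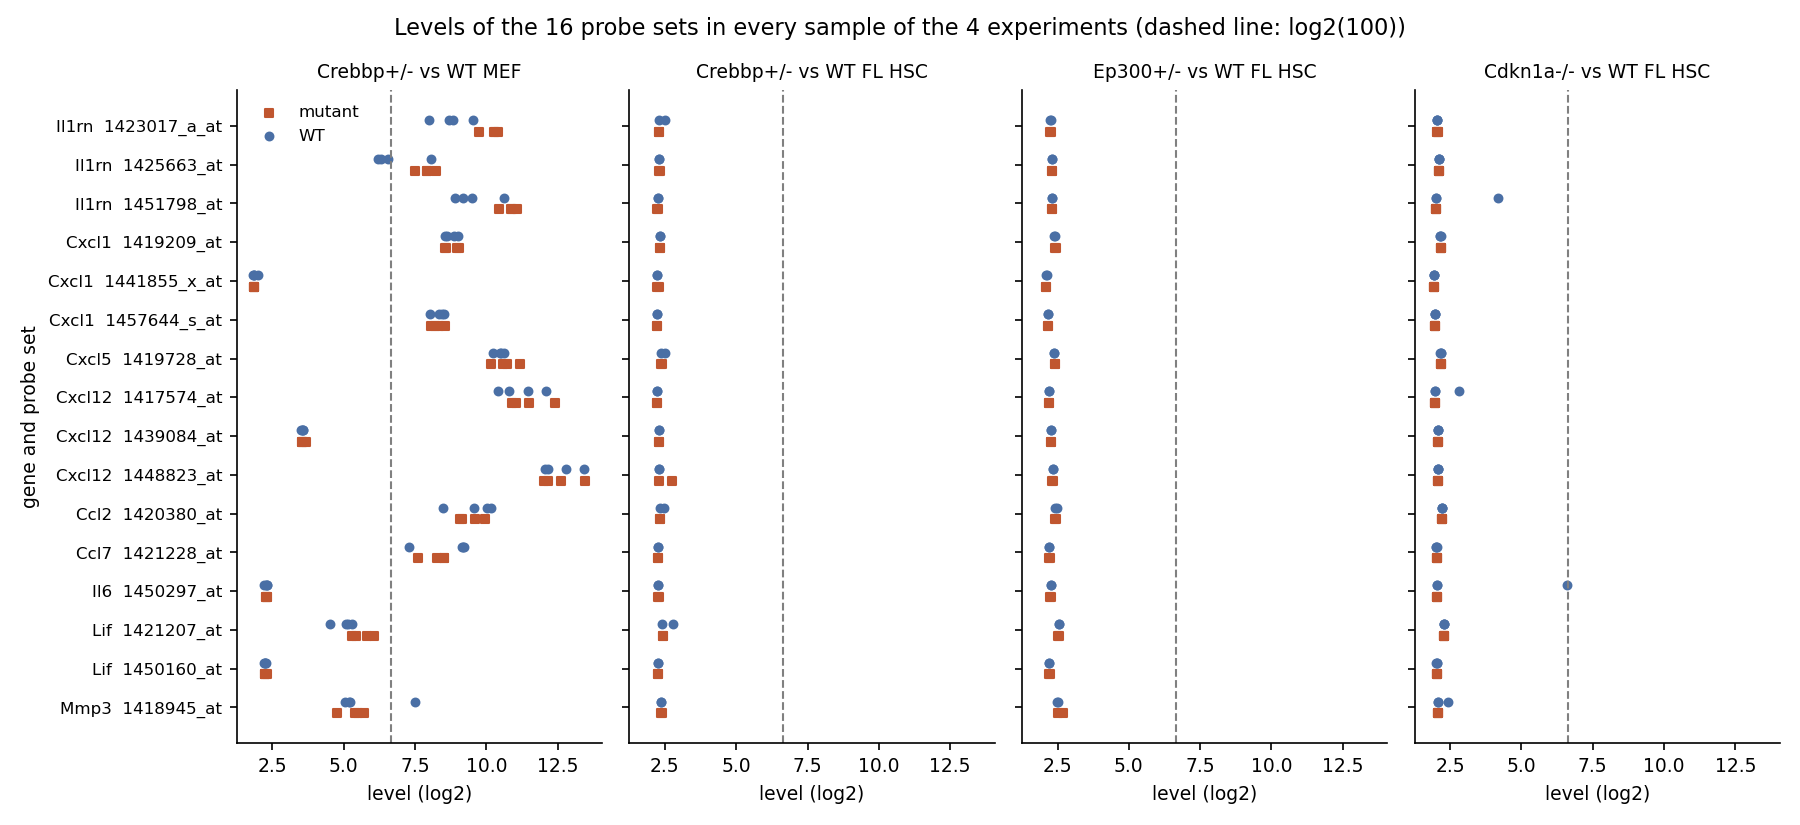
Level on the log2 scale (horizontal axis) of the 16 probe sets (vertical axis) in every WT (circles) and mutant (squares) sample of the 4 experiments, with a dashed line at log2(100). In the 3 FL HSC panels all points lie left of the line, most between 1.93 and 3, and *Il6* in 1 *Cdkn1a* WT sample (6.61) comes closest to it. Experiments were normalized apart, and levels of different probe sets are not compared.

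The values above 3 in the *Cdkn1a* experiment were both from WT sample 3. *Il6* read 2.04, 2.04 and 6.61 in the WT samples and 2.04 to 2.05 in the 4 *Cdkn1a*-/- samples, so the third WT sample lay just under the minimum and the others together at the background. *Il1rn* (1451798_at) read 2.01, 2.01 and 4.19 in WT and 2.01 to 2.02 in *Cdkn1a*-/- samples. *Cxcl12* (1417574_at) and *Mmp3* were also highest there, at 2.82 and 2.41 against 1.97 and 2.07 to 2.08 in the other samples.

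Markers of several other cell types moved with these values. In WT sample 3 the summed linear level of the macrophage list was 23204, against 5888 to 12046 in the other samples, and 8 of its 10 genes reached the minimum in the WT group against 3 in the null group. The scavenger receptor *Marco* read 9.14 against at most 2.17 elsewhere and *C1qb*, a complement subunit of macrophages, 12.07 against at most 3.96, while *Cd163* stayed at 2.08. Mast cell markers summed to 4882 there and to 106 to 728 elsewhere, with 3 of 8 reaching the minimum in WT and *Ms4a2*, a chain of the IgE receptor, at 8.01 against at most 2.87. Hepatocyte markers summed to 105010 there and to 413 to 3669 elsewhere. Erythroid markers summed to 10999 there and to 27.6 to 55.7 elsewhere. Fibroblast markers summed to 3255 there and to 1936 to 2242 elsewhere, and epithelial markers to 4108 there and to 1728 to 2936 elsewhere. The endothelial list and the hematopoietic stem and progenitor list were not highest there. The part of other cell types in the *Il6* and *Il1rn* values was not tested. Without this sample the WT levels were 2.04 for *Il6* and 2.01 for *Il1rn*.

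Several receptors of these ligands, unlike the ligands, were measured in FL HSCs. This selection of 11 receptor genes from the lists was made after the values were seen. In FL HSCs *Cxcr4*, the receptor of CXCL12, read 11.87 to 12.12 in WT and 11.78 to 12.03 in mutant samples of the *Crebbp* and *Ep300* experiments, and 13.43 to 13.79 in the *Cdkn1a* experiment. Its log2 change was -0.22 in *Crebbp*+/- (standard error 0.13, adjusted p = 0.372), 0.02 in *Ep300*+/- (standard error 0.13, adjusted p = 1.00) and -0.09 in *Cdkn1a*-/- FL HSCs (standard error 0.12, adjusted p = 0.806, all from limma). In MEFs *Cxcr4* lay at 2.70 to 2.80, and the other CXCL12 receptor, *Ackr3*, read 9.26 to 10.36 in WT and 9.48 to 10.65 in *Crebbp*+/- MEFs. *Ackr3* was higher in 4 of 4 litters, as were 10.2% of all probe sets tested in MEFs. The mean change was 0.36 (standard error 0.09, adjusted p = 0.626 from limma). In FL HSCs *Ackr3* lay at 2.11 to 2.37. MEFs and FL HSCs were normalized apart and differ in RNA amount and handling, so these readings are set only against the minimum.

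*Ccr2*, the receptor of CCL2 and CCL7, read 7.22 to 8.21 in the *Crebbp* and 7.10 to 7.58 in the *Ep300* FL HSCs, 10.94 to 12.61 in the *Cdkn1a* FL HSCs and 4.60 to 4.97 in MEFs. *Il6ra*, the IL-6 receptor, likewise passed the minimum in all samples of the 3 FL HSC experiments and in none of the MEFs. *Il1r1*, the receptor that *Il1rn* blocks, passed it in all MEFs, where it differed by -0.12 (adjusted p = 0.783), and in 2 of 4 *Crebbp*, 4 of 4 *Ep300* and 7 of 7 *Cdkn1a* FL HSC samples. Its co-receptor *Il1rap* stayed below the minimum in all 8 MEF samples (5.92 to 6.27). *Il1rap* was also below it in the *Crebbp* and *Ep300* FL HSCs, and passed it in 7 of 7 *Cdkn1a* FL HSC samples. *Lifr* read 8.25 to 8.93 in MEFs and passed the minimum in 1 of the 15 FL HSC samples, *Cdkn1a* WT sample 3. *Cxcr2*, the receptor of CXCL1 and CXCL5, passed it nowhere. limma called 0 of the receptors that reached the minimum and were tested, 4 in MEFs and 5, 5 and 8 in the *Crebbp*, *Ep300* and *Cdkn1a* FL HSCs.

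**Figure D5:**
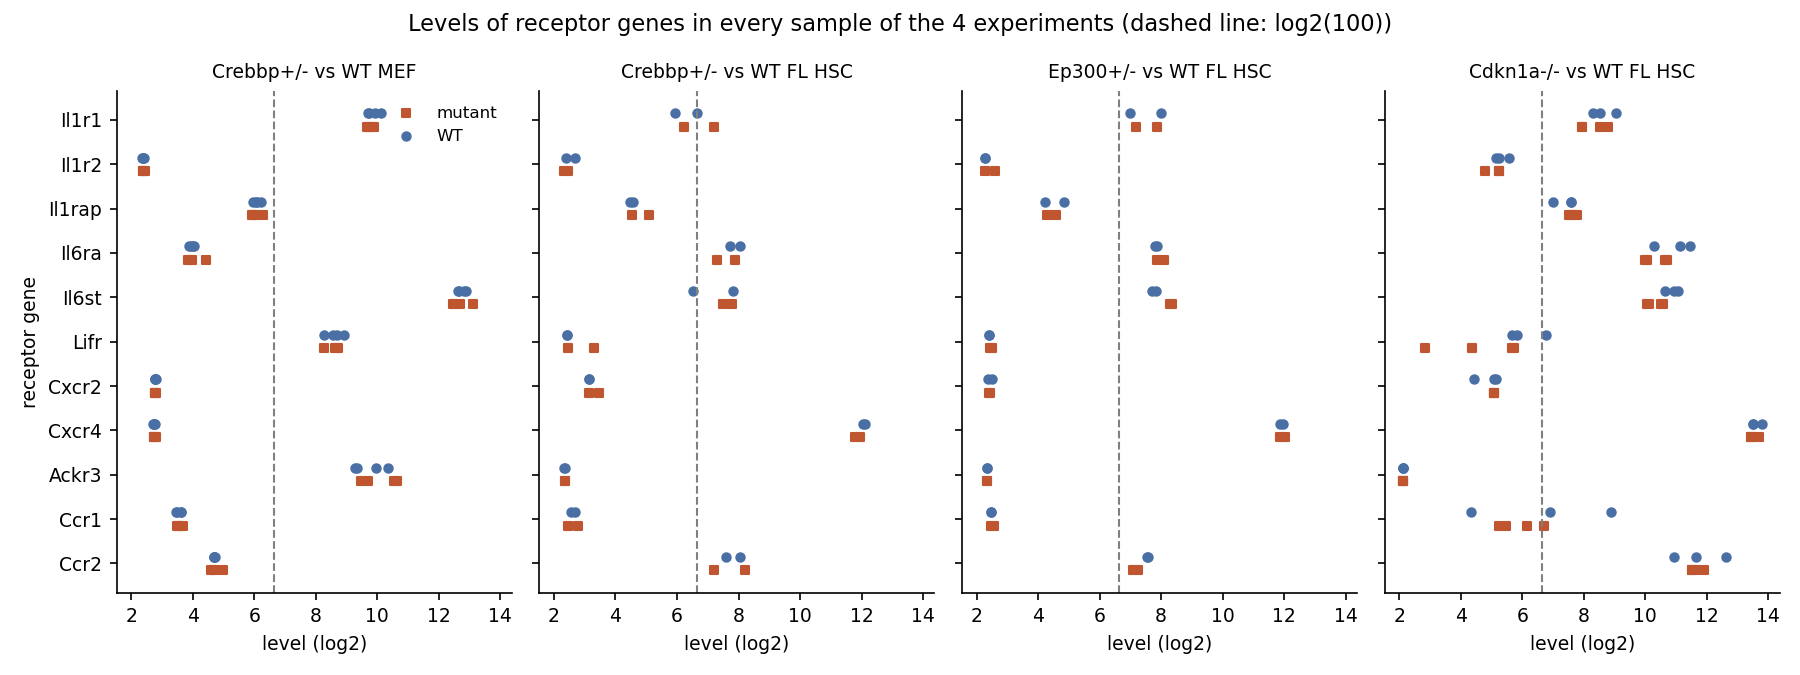
Level on the log2 scale (horizontal axis) of 11 receptor genes (vertical axis) in every WT (circles) and mutant (squares) sample of the 4 experiments, with a dashed line at log2(100). *Cxcr4*, *Ccr2* and *Il6ra* lie right of the line in FL HSCs and left of it in MEFs, and *Ackr3* the other way round. Levels are not compared between experiments or between genes.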

How the data were processed

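The authors hybridized RNA to Mouse 430 2.0 arrays and processed them with GCRMA (sequence-based background correction, quantile normalization, 1 log2 value per probe set). They did so apart for the *Crebbp*, *Ep300* and *Cdkn1a* FL HSCs and the MEFs, so levels were compared only within an experiment. From the deposited log2 values, 64 control probe sets of 45101 were left out and technical replicates (r 0.989 to 0.994) were averaged. The methods say that 12 ng of FL HSC RNA was amplified and MEF RNA was not, while the sample labels name the amplification kit for MEFs too.

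Groups came from the labels. The probe sets at or above log2(100) in at least 1 sample of an experiment were tested in R 4.3.3 with limma 3.58.1 and Benjamini-Hochberg adjustment over all tested: MEFs with a block per litter, *Crebbp* and *Ep300* FL HSCs jointly with a block per pair of the same number (the methods use a paired test), and *Cdkn1a* unpaired. The number of arrays limits the precision, and the p-values of FL HSCs rest on 2 to 4 pools a group. The scripts were tested on simulated data.

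Probe sets were named through the GEO platform table (34958 with 1 gene name, 932 with several, 9211 without a row), and promoter windows come from RefSeq (GRCm38.p6; 7 of 10 genes matched, none for *Cxcl5*, *Ccl2* and *Ccl7*). The genes and lists were chosen with earlier results of these data known. Named are the 10 genes, from each list the 2 tested genes with the widest change in MEFs and any that were called, the 6 genes most like *Il1rn* and the 3 most opposite, and 11 receptors added after values were seen. Other filters, scalings, variance priors, tests and blocks and leaving out each replicate were tried.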

Additional observations from a re-analysis of the deposited data

Results flagged for a closer look

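In a check for single samples far from the other 3 of their group of 4 in MEFs, 2 of the 22 groups examined had one. Both were WT litter 1. Chance flags about 1 in 20 independent groups, but that rate is no measure here. The groups share samples and genes, and *Mmp3* was examined only because this same sample passed the minimum. *Ccl7* (1421228_at) read 7.296 in WT litter 1, with the nearest WT sample at 9.135, so that the gap was 0.955 of the range of the group. *Mmp3* (1418945_at) read 7.485 there, with the nearest at 5.233 (0.928 of the range). The *Ccl7* change was -0.48 with and -1.05 without litter 1. The cause was not tested.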

How the results depend on the processing

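Over 26 log2 changes of tested probe sets and named genes in MEFs, 237 of 246 values under other settings kept their direction and their side of the threshold, 2 passed the threshold and 7 turned direction. The 2 that passed were *Il1rn* probe sets without replicate 1 (litter 1), which is no test of a gene chosen from this comparison, so the count of called probe sets of these genes ran from 0 to 2 when 1 litter was left out and was 0 under each other alternative. The turned directions came from leaving out 1 litter and were of changes that were not called: *Ccl2* ran from -0.64 to 0.19 (0.009 without litter 2), *Cxcl1* (1419209_at) from -0.12 to 0.17 (-0.0077 without litter 3), *Cxcl12* (1448823_at) from -0.28 to 0.22, *Il6st* from -0.16 to 0.00067 and *Lifr* from -0.19 to 0.16. *Mmp3* also turned, from -0.38 to 0.39 without litter 1, where it was below the minimum and not tested, so it is not among the 7. *Il18* ran from 0.12 (without litter 4) to 0.52 (without litter 1) and *Mmp13* from 0.33 (without litter 2) to 1.27. Numbers pair the samples by litter in MEFs. Without the replicate block limma called 0 of these probe sets and 2 of all tested in MEFs, against 0 of all with it. With a replicate block the count over all probe sets in *Cdkn1a* FL HSCs fell from 85 to 6, and without the block in *Crebbp* FL HSCs from 51 to 0, while 0 of these probe sets were called in either. Other settings moved the count over all probe sets in *Crebbp* FL HSCs between 0 and 876 and in *Cdkn1a* FL HSCs between 36 and 101. The 5 probe sets below the minimum in MEFs and all 16 in FL HSCs are limited by signal over background.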

Other observations

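In FL HSCs, the other genes of the 8 lists held no call from limma. Of 30 tested in *Crebbp*+/- FL HSCs, 6 were higher and 24 lower, where 42.3% of all probe sets tested were lower. Their median log2 change was -0.13 beside 0.05 over all probe sets tested. The counts come from the same 2 pools of each genotype, and the lists were not tested as sets. Without adjustment (p under 0.05 and fold over 1.5) 1 passed as higher and 2 as lower. The 3 of 30 are the same share as the 1333 of all 13332 probe sets that passed, so nothing is read from the count. *Ccr9*, the receptor of the thymic chemokine CCL25, read 6.66 and 7.38 in WT and 8.40 and 8.49 in *Crebbp*+/- samples (log2 change 1.43, standard error 0.21, adjusted p = 0.060). *Irak3*, a brake on IL-1 receptor signalling, read 6.61 to 7.18 in WT and 5.06 to 6.29 in *Crebbp*+/- samples (-1.22, standard error 0.20, adjusted p = 0.069). In this experiment 1 WT sample alone reached the minimum for *Irak3*, so the size of its difference depends on the background. The third was *Cebpb* (-0.60, adjusted p = 0.088). These 3 genes were named after their values were seen. Of 30 tested in *Ep300*+/- FL HSCs 18 were higher and 12 lower (median 0.03, 1 without adjustment, *Il18*, beside 0.78% of all), and of 54 in *Cdkn1a*-/- FL HSCs 23 were higher and 31 lower (median -0.04, 3 or 5.56% without adjustment, beside 4.05% of all). Over all probe sets tested, 45.1% were higher in *Ep300*+/- and 37.8% lower in *Cdkn1a*-/- FL HSCs.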
